A study of Rattus norvegicus with 20 samples.

Results

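The genes described here encode proteins that copy DNA in S phase or carry the cell through mitosis. A list of 55 such genes, 22 of S phase and 33 of mitosis, was matched by RefSeq accession to the probes that were not controls on the arrays, and 23 of the 55 had a probe, 8 of S phase and 15 of mitosis. The array analysis tested 36043 genes in all, of which 8662 had a gene symbol. The other 32 listed genes, among them Top2a, Bub1, Ccne1, E2f1 and Mcm2 to Mcm6, were not matched to a probe and were not analysed here, and no checkpoint or centromere gene of the list was measured.

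The samples were 12 mammary adenocarcinomas and 8 normal mammary tissues of female Sprague-Dawley (Jcl:SD) rats, each hybridised to its own array. OP (obesity-prone) and OR (obesity-resistant) rats ate a diet with 45% of its energy as fat and were told apart by body weight at 7 weeks of age, and LC (lean control) rats ate a diet with 10%. There were 6 OP, 3 OR and 3 LC cancers, and 3 OP, 2 OR and 3 LC normal tissues. The labels attach the same exposure to every sample, whole-body Cs-137 gamma rays to 4 Gy at 0.5 Gy/min at 7 weeks with 30 weeks of observation, so no unirradiated tissue is part of any comparison, and the normal tissues came from age-matched rats. Cancers had been picked for even histology, free of necrosis and of marked infiltration. The labels do not say that each cancer came from a different rat, so a p-value here reflects only how far these samples scatter.

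Before a cell divides, the MCM helicase is loaded on replication origins, and cyclin-dependent kinases take part in its activation. DNA polymerases with their sliding clamp then copy each strand while ribonucleotide reductase and thymidylate synthase supply the building blocks. Entry into mitosis is driven by cyclin B with Cdk1, the Polo and Aurora kinases build the spindle, and the anaphase-promoting complex with Cdc20 then releases the sister chromatids. In an adult mammary gland at rest only a small share of cells cycles, and transcripts of mitotic genes are a usual measure of proliferation in mammary tumours. Many S-phase genes carry E2F sites near their start, and many mitotic genes carry the cell-cycle homology region (CHR) together with CCAAT boxes, as known mostly from human and mouse cells.

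Most of the measured genes of both phases were higher in the cancers than in normal mammary tissue. Of the 23, 20 rose past an adjusted p of 0.05 in limma's moderated test with Benjamini-Hochberg adjustment across the whole array, a rise that 29% of all genes tested showed. The 20 were 6 of the 8 S-phase genes and 14 of the 15 mitotic genes, and under 3 other scalings of the arrays 18, 19 and 16 genes rose, the last of 22 held. Of all genes tested under those scalings, 14.6%, 14.6% and 26.7% rose. Hmmr fell, as 33.5% of all genes did, and Cdk2 and Prim1 did not pass. Each difference is the average of the cancer minus normal differences in OP, OR and LC, each obesity group counting equally. Its median on the log2 scale was 1.21 for S-phase genes, 1.61 for mitotic genes and -0.03 for all genes. Quantile normalization gives every array the same distribution, which holds the median of all genes near 0. Under the 3 other scalings that median was -1.50, -0.78 and -0.19. Levels throughout are log2 intensities after background correction and quantile normalization, and they were compared within a probe only. In whole tissue, fewer cells of a type and less RNA per cell cannot be told apart.

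**Figure D1:**
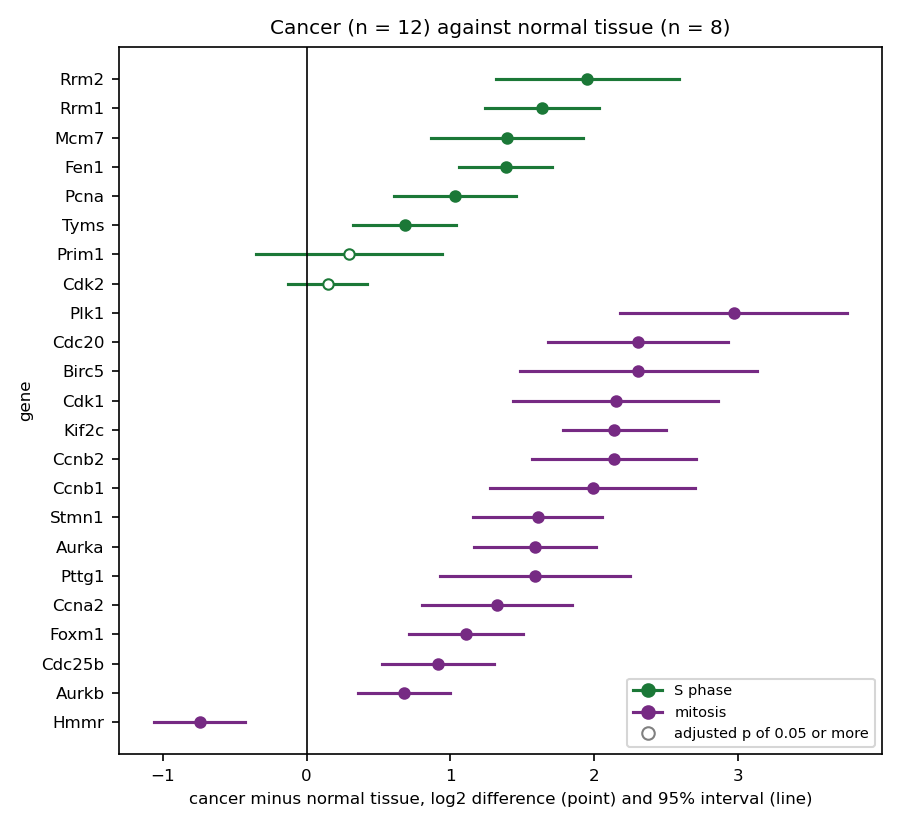
Log2 difference of cancer (12 samples) minus normal tissue (8 samples) for each measured gene, with the 95% interval as a line, S-phase genes above mitotic genes. Plk1 sits furthest to the right at 2.97 and Hmmr alone lies left of 0 at -0.74, while the open points of Prim1 and Cdk2 mark an adjusted p of 0.05 or more.

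The promoters of the measured genes were read from RefSeq (assembly GRCr8). Its table of 250 bases before to 50 bases after each start held 19 of the 23 genes, 7 of S phase and 12 of mitosis. Shown here are the 110 bases before the start, on the gene's own strand, of 3 mitotic genes that rose (Cdc20, Cdk1 and Ccnb2), of Hmmr, the mitotic gene that fell, of Mcm7, an S-phase gene that rose, and of Prim1, which did not pass. Capitals mark TTTGAA (the CHR core), CCAAT or its reverse complement ATTGG, and TTTNNCGC (an E2F-like word, N being any base). The windows lie at chr5:137255800-137255909 (minus strand) for Cdc20, chr20:19265183-19265292 (plus strand) for Cdk1, chr8:79981659-79981768 (minus strand) for Ccnb2, chr10:25665216-25665325 (minus strand) for Hmmr, chr12:22163179-22163288 (minus strand) for Mcm7 and chr7:1031352-1031461 (plus strand) for Prim1.
Cdc20: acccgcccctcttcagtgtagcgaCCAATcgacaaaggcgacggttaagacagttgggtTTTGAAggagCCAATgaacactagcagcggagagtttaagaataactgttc
Cdk1: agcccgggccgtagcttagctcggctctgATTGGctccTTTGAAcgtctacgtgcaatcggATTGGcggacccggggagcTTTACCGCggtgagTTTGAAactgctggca
Ccnb2: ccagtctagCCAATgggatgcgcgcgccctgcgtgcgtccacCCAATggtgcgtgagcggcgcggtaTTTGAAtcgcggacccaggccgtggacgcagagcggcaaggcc
Hmmr: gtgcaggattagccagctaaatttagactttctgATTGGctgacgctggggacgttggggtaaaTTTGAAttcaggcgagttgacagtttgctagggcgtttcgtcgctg
Mcm7: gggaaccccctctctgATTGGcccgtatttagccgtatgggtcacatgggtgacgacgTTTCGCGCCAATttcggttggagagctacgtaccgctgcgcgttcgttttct
Prim1: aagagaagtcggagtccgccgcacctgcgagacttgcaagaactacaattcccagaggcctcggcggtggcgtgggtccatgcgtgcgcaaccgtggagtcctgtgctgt

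Over the whole 300 bases and on both strands, the CHR core word TTTGAA was found in 7 of 12 mitotic promoters (Birc5, Ccnb2, Cdc20, Cdk1, Hmmr, Plk1 and Pttg1), in 0 of 7 S-phase promoters and in 18.3% of all 33469 promoters of the table. In Plk1 the word lay after the start. CCAAT was found in 10 of 12 mitotic promoters and 5 of 7 S-phase promoters, against 37.5% of all promoters. In Prim1 the only CCAAT lay after the start, outside the bases shown above. The E2F-like word TTTNNCGC was found in 3 of 12 mitotic promoters (Cdk1, Plk1 and Stmn1), in 2 of 7 S-phase promoters (Mcm7 and Tyms) and in 4.9% of all promoters. In Mcm7 the E2F-like word and the CCAAT next to it share 1 base, which the capitals show as a single run. Hmmr carries TTTGAA and CCAAT words as Cdc20, Cdk1 and Ccnb2 do, so these words are present in a gene that was lower in the cancers as well as in genes that were higher. A word match is a description of these letters and does not show binding.

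Among the S-phase genes, Rrm1 and Rrm2 encode the large and small subunits of ribonucleotide reductase, which makes deoxyribonucleotides. The Rrm1 level was 7.97 at the lowest, 8.76 at the median and 9.43 at the highest in the cancers, against 6.77, 7.03 and 8.18 in normal tissue. All but 2 cancers, 10 of 12, lay above the highest normal tissue. The difference was 1.64 (SE 0.19), a 3.11-fold rise, with limma's adjusted p at 1.96e-06. Of its dimmer probes, 1 was higher by 0.52 (SE 0.07) and the other lower, at -0.30 (SE 0.10; limma's adjusted p = 0.0183), so the Rrm1 probes disagreed. Rrm2 spanned 7.77 to 10.25 (median 8.88) in the cancers and 6.55 to 8.58 (median 6.72) in normal tissue, and the ranges overlapped. Rrm2 rose by 1.95 (SE 0.30), or 3.86-fold, with limma's adjusted p at 3.59e-05. A second, dimmer Rrm2 probe rose by 0.89 (SE 0.17; limma's adjusted p = 2.23e-04). That probe alone is held in the authors' deposited table, where its difference was 0.11 (limma's adjusted p = 0.743). With the processed signal at the 75th percentile, the scaling of that table, the brighter probe gave 1.96 and the dimmer one 0.11.

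Fen1, the nuclease that trims the flaps of lagging-strand fragments, had levels of 13.08 to 14.13 (median 13.44) in the cancers and 11.98 to 12.89 (median 12.13) in normal tissue. Every cancer lay above every normal tissue, and the difference was 1.38 (SE 0.15), 2.61-fold, with limma's adjusted p at 1.34e-06. Mcm7, a subunit of the helicase ring, ranged over 10.19 to 11.01 (median 10.45) in the cancers and 7.58 to 9.995 (median 9.41) in normal tissue. Mcm7 also showed no overlap, although the gap was small, and rose by 1.39 (SE 0.25), 2.63-fold, with limma's adjusted p at 1.41e-04. Pcna, the sliding clamp, reached 10.03 to 11.15 (median 10.42) in the cancers against 8.90 to 10.51 (median 9.42) in normal tissue. Its ranges overlapped, and the difference was 1.03 (SE 0.20), 2.05-fold, with limma's adjusted p at 3.08e-04.

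Tyms, thymidylate synthase, rose least among the S-phase genes that passed, by 0.68 (SE 0.17; limma's adjusted p = 0.00227). That call was lost under 3 other scalings, with values between -0.056 and 0.043. Cdk2, the partner of cyclin E at the start of S phase, had levels of 9.48 to 10.42 (median 9.94) in the cancers and 9.49 to 10.24 (median 9.65) in normal tissue. The groups overlapped almost entirely, the difference was 0.15 (SE 0.13, 95% interval -0.13 to 0.42) and limma's adjusted p was 0.337. A second Cdk2 probe was lower in the cancers, at -0.35 (SE 0.10; limma's adjusted p = 0.00629), so its probes disagreed. Prim1, the catalytic primase subunit that starts each new strand, ranged over 9.17 to 11.91 (median 9.97) in the cancers and 9.18 to 10.57 (median 9.58) in normal tissue. Its difference was 0.30 (SE 0.30, 95% interval -0.35 to 0.94), with limma's adjusted p at 0.414, and the highest value, 11.91, belonged to OP cancer 2.

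The largest rise of all belonged to a mitotic kinase. Plk1, the Polo kinase that acts from mitotic entry to cytokinesis, had levels of 10.74 to 13.15 (median 11.94) in the cancers, against 7.85 to 11.12 (median 8.92) in normal tissue. All but 2 cancers exceeded the highest normal tissue, LC normal 2, and the difference was 2.97 (SE 0.37), a 7.82-fold rise, with limma's adjusted p at 5.09e-06. Aurka, which matures the spindle poles, had levels of 8.20 to 9.76 (median 9.06) in the cancers and 6.93 to 8.50 (median 7.46) in normal tissue. Only 1 cancer fell within the normal range, and Aurka rose by 1.59 (SE 0.20), 3.01-fold, with limma's adjusted p at 5.09e-06. The chromosomal passenger genes also rose: Birc5 (survivin) by 2.31 (SE 0.39) and Aurkb, its kinase partner, by 0.68 (SE 0.15). For Birc5 only 3 of 12 cancers exceeded LC normal 2. The Aurkb call was lost under 3 other scalings, with values between 0.13 and 0.29.

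The genes of the mitotic entry kinase rose together, all 5 of those measured. Cdk1, its catalytic subunit, had levels of 11.08 to 13.06 (median 11.99) in the cancers and 9.05 to 12.16 (median 9.68) in normal tissue. Here 5 of 12 cancers lay above LC normal 2, and the difference was 2.15 (SE 0.34), 4.43-fold, with limma's adjusted p at 4.28e-05. Ccnb2, cyclin B2, had levels of 7.90 to 9.75 (median 9.13) in the cancers against 6.41 to 8.63 (median 6.49) in normal tissue, and 9 of 12 cancers were above every normal tissue. It rose by 2.13 (SE 0.27), 4.39-fold, with limma's adjusted p at 5.13e-06. Ccnb1, cyclin B1, rose by 1.99 (SE 0.34), Ccna2, cyclin A2, by 1.33 (SE 0.25), and Cdc25b, a phosphatase that activates Cdk1, by 0.91 (SE 0.18). A second Ccna2 probe, dimmer than the first, gave 0.15 (SE 0.13; limma's adjusted p = 0.331).

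Of the genes of anaphase, Cdc20, the activator of the anaphase-promoting complex, had levels of 10.23 to 12.62 (median 11.52) in the cancers against 8.54 to 11.01 (median 9.11) in normal tissue. The groups met only at LC normal 2, which exceeded 2 of the 12 cancers, and Cdc20 rose by 2.31 (SE 0.30), 4.94-fold, with limma's adjusted p at 6.03e-06. Pttg1, securin, which holds separase in check, spanned 11.73 to 13.56 (median 12.78) in the cancers and 10.09 to 13.20 (median 11.04) in normal tissue. Its groups overlapped widely, with 2 of 12 cancers above LC normal 2, and it rose by 1.59 (SE 0.31), 3.00-fold, with limma's adjusted p at 3.37e-04.

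Among the microtubule genes, Kif2c, a kinesin that takes tubulin off microtubule ends at the centromere, gave the smallest p of all 23 genes. Kif2c had levels of 8.12 to 9.75 (median 9.23) in the cancers and 6.74 to 8.0 (median 7.06) in normal tissue, with no overlap, and rose by 2.14 (SE 0.17), 4.40-fold, with limma's adjusted p at 4.66e-08. Stmn1, stathmin, which also frees tubulin from microtubules, ranged over 13.50 to 14.84 (median 14.27) in the cancers and 12.02 to 13.90 (median 12.71) in normal tissue. All but 1 cancer exceeded LC normal 2, the highest normal tissue, and Stmn1 rose by 1.61 (SE 0.21), 3.04-fold, with limma's adjusted p at 7.83e-06. Foxm1, a transcription factor of mitotic genes, had levels of 9.04 to 10.57 (median 9.70) in the cancers and 8.15 to 9.19 (median 8.68) in normal tissue. It rose by 1.11 (SE 0.19), 2.15-fold, with limma's adjusted p at 8.80e-05, and 11 of 12 cancers were above every normal tissue.

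Hmmr, which binds hyaluronan at the cell surface and microtubules at the spindle, was the exception. Its level was 7.37 at the lowest, 7.999 at the median and 8.75 at the highest in the cancers, against 8.004, 8.76 and 9.64 in normal tissue. The ranges overlapped, and Hmmr fell by 0.74 on the log2 scale (SE 0.15), 1.67-fold lower, with limma's adjusted p at 4.41e-04. Its second, dimmer probe, well above background on 9 of 12 cancer and on all 8 normal arrays, gave 0.13 (SE 0.06; limma's adjusted p = 0.0828), so the fall rests on a single probe. Relative to the median of all genes, the main Hmmr difference was -0.72. It was -0.17 with background-corrected signals scaled to each array's 75th percentile and -0.88 in the authors' deposited values. It was 0.42 where the scanner's processed signal was scaled to each array's 75th percentile. Under that last scaling the Hmmr difference itself was -1.08.

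**Figure D2:**
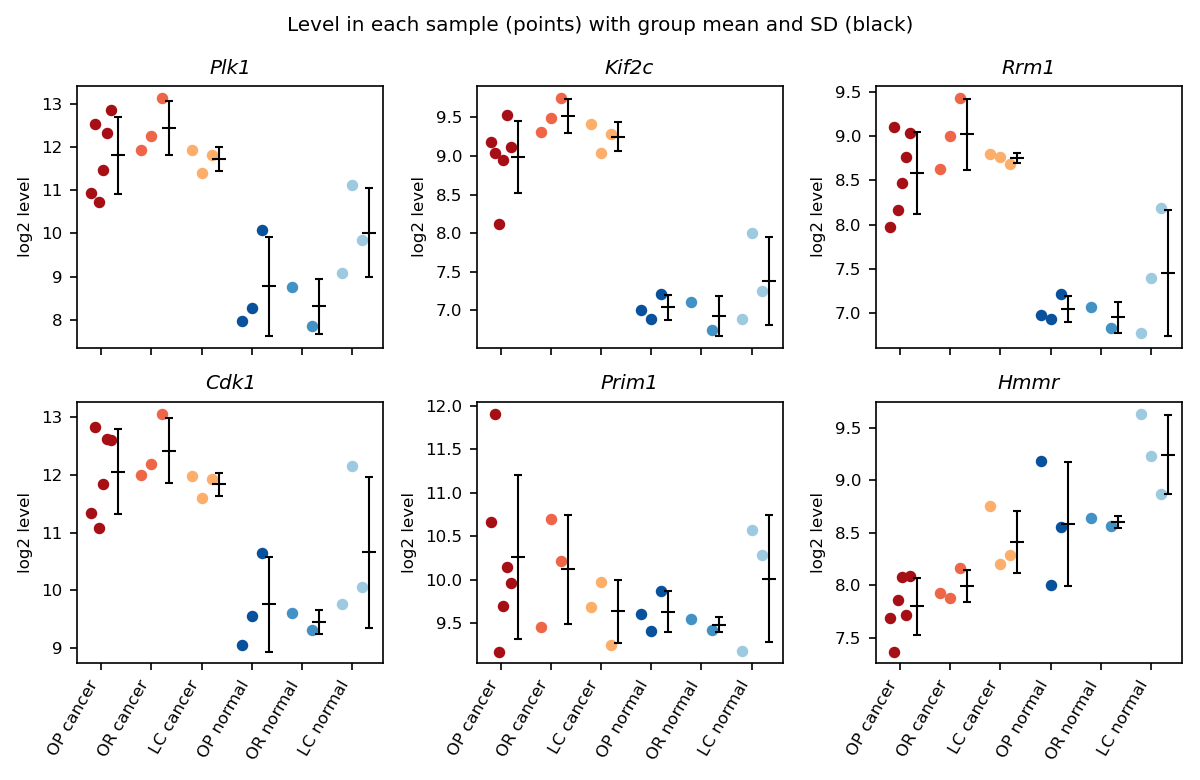
Log2 level of 6 genes in each of the 20 samples (points) by group, with the group mean and SD in black. Kif2c cancers all lie above the normal tissues, Plk1, Rrm1 and Cdk1 meet them through a single normal tissue each (LC normal 2 for Plk1 and Cdk1, LC normal 3 for Rrm1), Prim1 overlaps throughout, and Hmmr cancers sit towards the low end of a shared range.

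The other genes of the same processes, a wider list of 132, included 48 that were measured and tested. In the replication list 13 of 24 tested genes rose and 3 fell (median 0.47), and in the mitosis list 15 of 22 rose and 0 fell (median 0.82), with 16 of the 48 genes not passing, against 29% of all genes higher and 33.5% lower. Of the E2F and Rb regulators, Tfdp1, an E2F partner, rose by 0.47 (SE 0.16; limma's adjusted p = 0.0187), and Rbl2, an Rb relative, had a difference of -0.37 (SE 0.19; limma's adjusted p = 0.104). The 3 largest rises were in mitotic genes. Spc25, a subunit of the NDC80 complex of the kinetochore, rose by 1.98 (SE 0.26; limma's adjusted p = 6.80e-06), and Nuf2, another subunit of it, by 1.87 (SE 0.23; limma's adjusted p = 4.56e-06). Kifc1, a minus-end kinesin that focuses spindle poles, had levels of 11.68 to 12.82 in the cancers against 9.63 to 11.81 in normal tissue and rose by 1.94 (SE 0.22; limma's adjusted p = 1.88e-06). The falls were in replication genes. Dnmt1, the maintenance DNA methyltransferase, fell by 0.65 (SE 0.12; limma's adjusted p = 2.68e-04), Orc2, an origin recognition subunit, by 0.63 (SE 0.10; limma's adjusted p = 6.08e-05), and Pold3, a subunit of DNA polymerase delta, by 0.36 (SE 0.11; limma's adjusted p = 0.0117).

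Other measures differed between the tissues as well. The mean log2 level of luminal epithelium markers was 12.69 to 13.59 in the cancers and 9.88 to 12.06 in normal tissue, with 10 of 10 tested markers higher, so the cancers carried the epithelial markers of their label. Adipocyte markers lay at 7.72 to 8.55 in the cancers and 13.00 to 13.91 in normal tissue, with 8 of 8 lower, and 3 of 3 endothelial and 5 of 6 fibroblast markers were lower too. The share of probes well above background was 61.3% to 79.3% on cancer arrays and 87.7% to 97.7% on normal arrays. The part of tissue composition and of array brightness in the differences of the cell cycle genes was not tested. All 23 chosen probes were well above background on all 20 arrays. Of the 23 genes, 11 had 2 or more probes, and the dimmer ones disagreed in call or direction for Cdk2, Rrm1, Ccna2 and Hmmr. Cancer and normal tissue shared slides 1, 2 and 3, with 2, 1 and 1 cancers on them. On those slides the median difference was 1.08, 1.74 and 0.63 for S-phase genes and 1.87, 1.70 and 1.48 for mitotic genes, with 8, 8 and 6 of 8 S-phase genes and 14 of 15 mitotic genes on each slide above 0. The lowest S-phase value was -0.41, for Prim1 on slide 3. The share of all genes above 0 on each slide was not counted. The second scan day alone, an alternative chosen after seeing the data, held all normal tissues and 4 cancers. The median difference there was 1.05 for S-phase genes, 1.80 for mitotic genes and -0.03 for all genes.

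**Figure D3:**
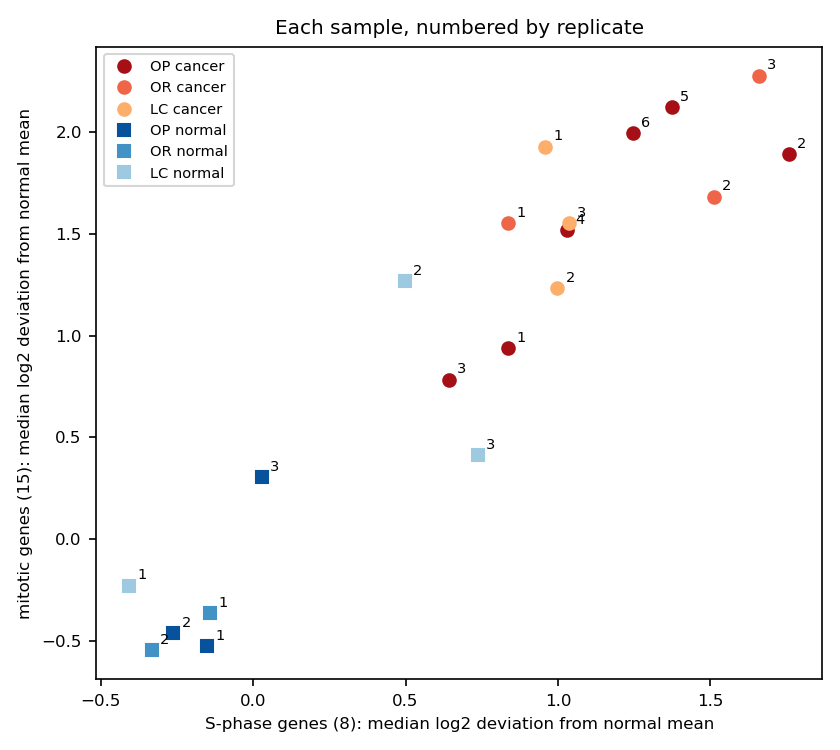
Each sample placed by its median log2 deviation from the normal mean over the 8 S-phase genes (horizontal) and the 15 mitotic genes (vertical), numbered by replicate. LC normal 2 and LC normal 3 sit apart from the other normal tissues, LC normal 2 at 1.27 for mitotic genes and LC normal 3 at 0.74 for S-phase genes, and the cancers span 0.64 to 1.76 and 0.78 to 2.28.

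The normal tissues were not alike in these genes. LC normal 2 was the highest normal tissue for 15 of the 23 genes. Its median deviation from the normal mean was 1.27 over mitotic genes and 0.50 over S-phase genes. For 18 genes it reached at least the lowest cancer, against 11 for LC normal 3 and 3 to 5 for the other normal tissues. The share of all genes that did so was not counted. The Birc5 level of LC normal 2 was 10.18, against 8.87 in LC normal 3, the next highest. LC normal 3 was highest for 6 genes, with a median deviation of 0.74 over S-phase genes and 0.41 over mitotic genes. Among the other normal tissues the deviations were -0.41 to 0.03 for S-phase genes and -0.55 to 0.30 for mitotic genes, and OP normal 3 was the highest of them in both.

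Marker levels set the LC normal tissues apart from one another too. LC normal 3 had a T and NK cell marker mean of 11.09 over 7 markers, against 7.64 to 8.13 in the other normal tissues, and a B and plasma cell mean of 15.06 over 2 markers, against at most 11.51. LC normal 2 had T and NK, B and plasma and luminal marker means of 8.12, 11.03 and 11.81, within the range of the OP and OR normal tissues, and the lowest endothelial mean, 10.19. LC normal 1 had the lowest luminal mean, 9.88. The part of these marker levels in the cell cycle genes of the LC normal tissues was not tested. Without LC normal 2, all 12 cancers lay above all remaining normal tissues for 10 of 23 genes (Mcm7, Fen1, Plk1, Aurka, Cdk1, Ccnb2, Cdc20, Kif2c, Stmn1 and Foxm1), against 9.66% of all genes. With it the count was 3 (Mcm7, Fen1 and Kif2c), against 8.58% of all genes.

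**Figure D4:**
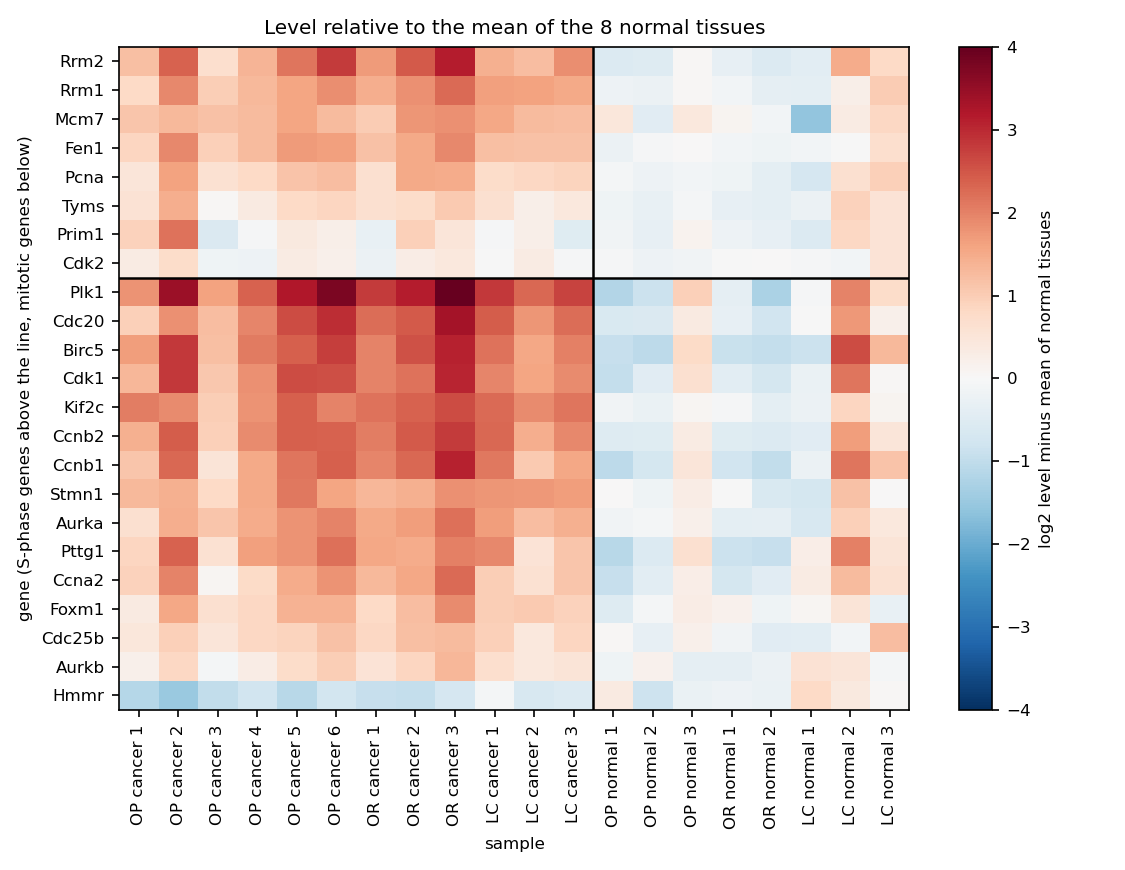
Log2 level of each measured gene (rows, S-phase above the line and mitotic below) in each sample (columns, cancers left of normal tissues), relative to the mean of the 8 normal tissues, red for higher and blue for lower. LC normal 2 stands out among the normal tissues in the mitotic rows, OR cancer 3 is the darkest cancer, and the Hmmr row runs blue through most cancers.

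The same contrast was then taken inside each obesity group. In OP rats 20 genes were higher and 1 lower in the cancers, against 21% and 23.5% of all genes, with median differences of 1.13 for S-phase and 1.91 for mitotic genes. In OR rats 20 were higher and 0 lower, against 14% and 14.6% of all genes, with medians of 1.52 and 2.58. At an unadjusted p under 0.05 the count of lower genes in OR was also 0, and array weights or the 75th percentile scalings called 1. In LC rats 10 were higher and 1 lower, against 20% and 23.7% of all genes, with medians of 0.69 and 0.90. The 10 were Rrm1, Mcm7 and Fen1 of S phase and Plk1, Aurka, Ccnb2, Cdc20, Kif2c, Stmn1 and Foxm1 of mitosis, and the lower one was Hmmr.

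Plk1 shows the contrast in single samples. OP cancers had Plk1 levels of 10.74 to 12.88 (median 11.90) against 7.97, 8.27 and 10.09 in OP normal tissue, a difference of 3.04 (SE 0.56; limma's adjusted p = 5.46e-04). OR cancers had 11.93, 12.27 and 13.15 against 8.76 and 7.85 in OR normal tissue, a difference of 4.14 (SE 0.72; limma's adjusted p = 7.29e-04). LC cancers had 11.95, 11.41 and 11.83 against 9.07, 11.12 and 9.86 in LC normal tissue, a difference of 1.72 (SE 0.65; limma's adjusted p = 0.0413). The groups did not overlap in any obesity group, and LC normal 2 came within reach of the LC cancers. Ccnb1 did overlap in LC, with 10.45, 9.38 and 9.90 in LC cancers against 8.12, 10.48 and 9.48 in LC normal tissue, and its difference there was 0.55 (SE 0.58; limma's adjusted p = 0.468). In OP and OR the Ccnb1 difference was 2.09 (SE 0.50) and 3.32 (SE 0.65), and both passed.

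The LC counts moved with single samples. Shares of all genes higher are given for the settings where they were counted. Without LC normal 2 the LC contrast called 12 genes higher, against 18.6% of all genes. Without LC normal 3 it called 7, against 20.7%. Without LC normal 1 it called 5 higher, against 16.6%, a count near that share, and 0 lower. Leaving out LC cancer 1 or LC cancer 3 gave 6 higher. Without both LC normal 2 and LC normal 3, an alternative chosen after seeing the data, 14 were higher, against 21% of all genes. The medians were then 1.38 for S-phase and 2.07 for mitotic genes. For OR, leaving out OR normal 2 gave 13 higher. On the second scan day alone, with 2 OP, 1 OR and 1 LC cancers, 7, 1 and 1 genes were called higher.

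**Figure D5:**
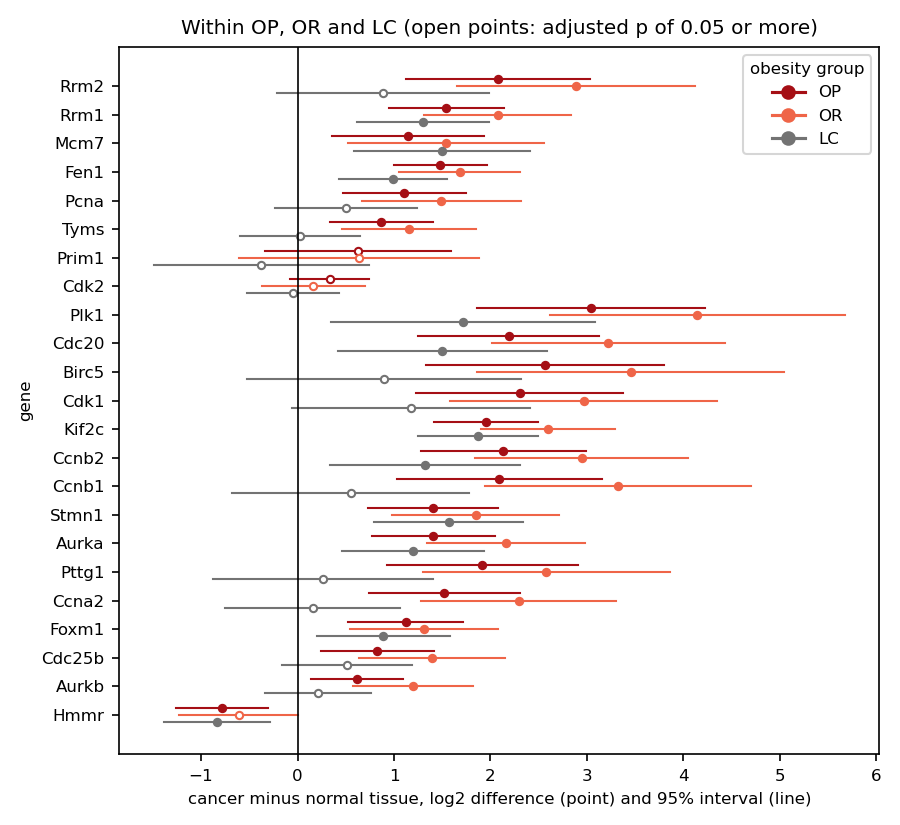
Log2 difference of cancer minus normal tissue in OP, OR and LC rats for each gene, with the 95% interval as a line and open points for an adjusted p of 0.05 or more. The LC points lie left of the OP and OR points for most genes, and the OR and LC intervals overlap for 21 of 23 genes, all but Ccna2 and Ccnb1. Neither of those genes passed a direct test of the difference, and the overlap was not counted over all genes.

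The difference between those contrasts was tested directly as an interaction. None of the 23 genes passed in limma's test (0 of 23, as 0% of all genes passed) for OP against OR, OP against LC or OR against LC. At an unadjusted p under 0.05 there were 0, 3 and 10 of 23 genes, against 2.67%, 8.53% and 8.13% of all genes in either direction. In each of these genes the cancer minus normal difference was larger in the high-fat group. The 3 smallest p were for OR against LC, in Ccna2 (2.14, SE 0.64, limma's adjusted p = 0.348), Ccnb1 (2.77, SE 0.87, limma's adjusted p = 0.380) and Pttg1 (2.31, SE 0.81, limma's adjusted p = 0.445). With array weights, 6 genes passed for OP against LC and 12 for OR against LC, and without LC normal 1 the count for OR against LC was 2. The share of all genes passing under those settings was not counted, so these counts cannot be set against the whole array. Since the 3 LC normal tissues enter both LC interactions, those 2 comparisons share samples.

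Among the 12 cancers no gene passed between obesity groups in limma's test (0 of 23 in each of 4 contrasts, 0% of all genes). OP and OR cancers shared no slide, so obesity group and slide cannot be told apart between them. OP and LC cancers shared only slide 1, and slide 4 held OP cancers alone. At an unadjusted p under 0.05 there was 1 gene for OP against LC and 1 for OP and OR together against LC, both times Hmmr, against 7.32% and 4.14% of all genes in either direction, so these counts stood near the share of all genes. For OP against OR and OR against LC the count was 0. Hmmr levels were 7.37 at the lowest, 7.79 at the median and 8.09 at the highest in OP cancers, 7.92, 7.88 and 8.17 in OR cancers, and 8.75, 8.20 and 8.29 in LC cancers. Every OP cancer lay below every LC cancer, and the difference was -0.62 (SE 0.17, limma's adjusted p = 0.378). Kif2c was 8.12 to 9.53 (median 9.08) in OP cancers against 9.31, 9.495 and 9.75 in OR cancers, a difference of -0.53 (SE 0.24, 95% interval -1.06 to 0.01, limma's adjusted p = 0.460). Ccna2 was 9.55, 9.79 and 10.52 in OR cancers against 9.22, 8.85 and 9.35 in LC cancers, a difference of 0.81 (SE 0.44, 95% interval -0.15 to 1.78, limma's adjusted p = 0.995). The last 2 intervals hold 0 and reach past the values seen, so the groups were not shown to be alike in these genes.

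Single cancers varied widely within the obesity groups. OR cancer 3 was the highest cancer for 15 of 23 genes, with Plk1 at 13.15 and Cdk1 at 13.06, and OP cancer 2 was the highest for 6, among them Prim1, Pcna and Fen1. OP cancer 3 was the lowest for 12 genes and OP cancer 1 for 6. OP cancers held the low end of most genes, with Plk1 at 10.74 to 12.88 in OP cancers, and OR cancer 3 the high end. The median SD over the 12 cancers was 0.38 for S-phase genes and 0.53 for mitotic genes, against 0.18 for all genes. Over the 8 normal tissues it was 0.47 and 0.74, against 0.22 for all genes.

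Among the 8 normal tissues no gene passed either (0 of 23 in each of 4 limma contrasts, 0% of all genes). At an unadjusted p under 0.05 there were 0 genes for OP against OR, 1 for OP against LC, 5 for OR against LC and 6 for OP and OR together against LC, all lower in the high-fat groups. Of all genes, 0.608%, 8.8%, 9.01% and 12.1% passed that threshold in either direction, so the OP against LC count was no larger than that share. Ccna2 was 7.33, 7.83 and 8.50 in OP and 7.54 and 7.77 in OR normal tissue, against 8.58, 9.51 and 8.86 in LC normal tissue. All 5 high-fat tissues lay below all 3 LC tissues, and the difference was -1.21 (SE 0.31, limma's adjusted p = 0.202). Pttg1 was 10.09, 10.65 and 11.83 in OP and 10.33 and 10.25 in OR, against 11.44, 13.20 and 11.71 in LC, a difference of -1.54 (SE 0.53, limma's adjusted p = 0.315). Ccnb1 was 7.29, 7.63 and 8.83 in OP and 7.58 and 7.35 in OR, against 8.12, 10.48 and 9.48 in LC, a difference of -1.67 (SE 0.58, limma's adjusted p = 0.324). In both genes OP normal 3 reached into the LC range. Without LC normal 1, 5 genes passed for OP and OR together against LC, and 2 each for OP and for OR against LC. The share of all genes passing without that sample was not counted, so these counts cannot be set against the whole array.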

How the data were processed

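RNA of 20 tissues was labelled with Cy3 and hybridised to 1-colour arrays. Per the file headers, the deposited scanner files hold median spot and background intensity, a processed intensity, and flags. The submitters' processing notes name Agilent Feature Extraction 10.7.3.1, and the headers 9.5.1.1. The authors' deposited value table is on a log2 scale; its values match (r = 1.00) the log2 processed intensity minus each array's 75th percentile, centred per probe. Here median signals were corrected by normexp (offset 50) and quantile-normalized in limma 3.58.1 (R 4.3.3); figures used matplotlib 3.10.9. Of 41012 probes, 115 with an outlier mark and 825 not well above background on 0.5 of any group's arrays were left out. The brightest probe stood for each gene. Of 13948 RefSeq accessions, 8991 matched a symbol. Fits used all 20 arrays (14 residual degrees of freedom), the 12 cancers (9) or the 8 normal tissues (5), with Benjamini-Hochberg adjustment over 36043 genes. Median signals replaced the planned mean signals, which the files used here lack. The number of arrays limits precision.

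Members and lists were chosen with earlier results of these data known. Full values are given for the 2 measured genes of each functional class with the smallest adjusted p, for those that fell or did not pass, for the 3 smallest p among cancers and among normal tissues, and for the 3 largest rises and falls of the wider list. Birc5, Aurkb, Tyms, Cdc25b, Tfdp1 and Rbl2 were added after their values were seen. The code was tested on simulated data.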

Additional observations from a re-analysis of the deposited data

How the results depend on the processing

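Cancer against normal gave 20 genes higher and 1 lower under slide (fixed or random block), scan day, dim-probe filters, probe means, array weights, and each sample left out. Cancer and normal samples with the same replicate number had r between -0.20 and 0.07, which cannot show whether they came from the same rat. The replicate block also gave 20. The counts were 18, 19 and 16 (of 22 held) with the processed signal at the 75th percentile, normexp at the 75th percentile and the authors' deposited values. Of all genes tested under them, 14.6%, 14.6% and 26.7% were higher. Those scalings moved the median of all genes to -1.50, -0.78 and -0.19. Relative to it, the members' median was 2.96, 2.20 and 1.65, against 1.61 in the main setting. Those scalings also put 18.0%, 17.9% and 39.4% of all calls in the higher direction, against 46.4%. They called 6, 7 and 5 wider-list genes lower, against 3. Of all genes, 23888 of 36043, 24081 of 36043 and 7551 of 18351 were called lower there, against 12084 of 36043 in the main setting. Without passing, Cdk2 changed sign at -0.10 (mean of probes) and Tyms at -0.056 (normexp, 75th percentile). Cdk2 passed at 0.35 with normexp at the 75th percentile. Mcm7, Pcna and Cdc25b lost their calls on the second scan day alone (adjusted p 0.0505, 0.0740 and 0.0533), where OP, OR and LC had 7, 1 and 1 higher genes and OP and LC 0 lower. OR had 1 lower gene under 4 alternatives. LC had 5, 6 and 5 higher genes with slide blocks, scan day blocks and array weights, and 0 lower with probe means. In the main setting 20% of all genes were higher in LC. Leaving out 1 sample gave 17 to 20 higher genes in OP, 13 to 20 in OR and 5 to 12 in LC, and 0 to 1 lower in OP and LC; among normal tissues it gave 0 to 2, 0 to 2 and 0 to 5 lower genes for OP, OR and both against LC, and for the OR against LC interaction 0 to 2. Array weights gave 6 and 12 interaction calls (OP and OR against LC), and removing LC normal 2 and 3 gave 1 lower for OP against LC. For the interactions and among normal tissues, the share of all genes was not counted under these alternatives. Inside OP, OR and LC it was counted only for the LC contrast without LC normal samples. The other counts there cannot be set against the whole array. The causes were not tested. Depth was limited by signal over background, lower on the cancer arrays.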
